A study of Homo sapiens with 9 samples.

Results

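AXL, TYRO3, MERTK, GAS6, MET, MST1R, IGF1R, INSR, DDR1 and EPHA2 were taken by gene name from the deposited table, where all 10 were found among 36785 genes. The set holds 9 receptor tyrosine kinases outside the ERBB family and GAS6, a secreted ligand of 3 of them. The cells were SKOV3, a long-established line from a human ovarian cancer in which the ERBB2 gene is amplified, and every group had been transduced with lentivirus. The 9 poly(A) RNA libraries comprised 3 labelled sh1 (STXBP6 knockdown 1), 3 labelled sh3 (STXBP6 knockdown 3) and 3 labelled shNC (genotype NC), the control. STXBP6 encodes amisyn, a syntaxin-binding protein. Whether the libraries came from separate cultures is not stated in the labels, so every p-value measures the spread between libraries, which may be technical.

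A receptor tyrosine kinase spans the plasma membrane, binds a ligand outside the cell and phosphorylates itself and its adaptors inside it. AXL, TYRO3 and MERTK form the TAM family, whose ligands GAS6 and protein S bridge the receptor to phosphatidylserine on dying cells and membrane debris. AXL, MET and EPHA2 are known in ovarian cancer for their part in motility, invasion and resistance to other kinase inhibitors.

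The libraries held 57654447 to 69264400 counts over all genes, and 3 counts corresponded to 0.0433 to 0.0520 CPM, the unit of counts scaled to the total of a library. The shNC library of replicate 3 stood apart, with a chi-square per degree of freedom of 17.0 and 18.9 against the other shNC libraries, where the other 7 pairs of libraries of a group gave 9.01 to 11.05. STXBP6 itself had 7, 4 and 26 counts in sh1, 20, 31 and 18 counts in sh3, and 4, 0 and 15 counts in shNC. These few counts ran opposite to the labels. Every library labelled sh3 lay above every library labelled shNC, and sh1 had the higher mean while overlapping shNC. The log2 changes of 0.87 ± 1.02 in sh1 and 1.81 ± 1.01 in sh3 did not pass the test (edgeR adjusted p = 0.558 and 0.225). With 4, 0 and 15 counts in shNC, STXBP6 was too scarce for these libraries to show whether a knockdown lowered it. No lower STXBP6 level was seen in the libraries labelled as knockdowns. The terms sh1, sh3 and shNC are therefore used throughout as names of libraries by their labels, and every direction rests on those labels. The 8 epithelial and SKOV3 markers all reached 1 FPKM (counts scaled by gene length and library size), with ERBB2 at 485 to 953 FPKM. Their sum was 781 to 815 FPKM in sh1, 1215 to 1255 FPKM in sh3 and 1212 to 1315 FPKM in shNC, most of it ERBB2. Single markers differed in direction, with means in sh1, sh3 and shNC of 13.97, 31.0 and 31.9 FPKM for KRT19, 4.08, 4.59 and 11.01 FPKM for MUC1, 43.2, 25.1 and 23.5 FPKM for KRT7 and 97.8, 152 and 97.3 FPKM for KRT8. Of the 7 leukocyte markers in the table CD68 alone reached 1 FPKM, and PTPRC had at most 4 counts. The leukocyte markers summed to 10.4 to 11.3 FPKM in sh1, 17.6 to 18.7 in sh3 and 13.7 to 15.1 in shNC. Most of this sum was CD68, with means of 10.8, 17.9 and 14.2 FPKM. None of the 4 endothelial markers reached 1 FPKM, with sums of 0.0237 to 0.0494 in sh1, 0.0614 to 0.118 in sh3 and 0.223 to 0.368 in shNC. Among 6 fibroblast and pericyte markers LUM and COL1A1 reached 1 FPKM. The 6 summed to 16.1 to 16.7 in sh1, 11.3 to 11.7 in sh3 and 13.7 to 17.4 in shNC. LUM and COL1A1 differed in direction, with means in sh1, sh3 and shNC of 6.75, 3.38 and 9.59 FPKM for LUM and 8.77, 7.00 and 5.26 FPKM for COL1A1. The part of these differences in the results was not tested. In bulk RNA, fewer cells of a kind and less RNA per cell cannot be told apart.

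The start sites of AXL, GAS6 and MST1R are shown because these genes had the largest changes of the 10 in sh1. Each window holds the 250 bases before the RefSeq start in GRCh38.p14, written 5′ to 3′ on the gene's strand. Capitals mark the GC box, the letters GGGCGG on either strand with overlapping matches counted, the core of sites that SP family factors bind. AXL lies on chromosome 19 (plus strand, 41219223 to 41261766 in the deposited table, window chr19:41218973-41219222). GAS6 lies on chromosome 13 (minus strand, listed from 113820549 to 113836044, while GENCODE 29 extends it to 113864067, window chr13:113864077-113864326). MST1R lies on chromosome 3 (minus strand, 49887002 to 49903873, window chr3:49903874-49904123).
AXL: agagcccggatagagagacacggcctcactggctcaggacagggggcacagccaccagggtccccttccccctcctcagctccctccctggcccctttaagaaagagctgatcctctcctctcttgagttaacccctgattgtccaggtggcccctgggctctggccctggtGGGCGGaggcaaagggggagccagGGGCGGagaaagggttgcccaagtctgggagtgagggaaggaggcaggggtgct
GAS6: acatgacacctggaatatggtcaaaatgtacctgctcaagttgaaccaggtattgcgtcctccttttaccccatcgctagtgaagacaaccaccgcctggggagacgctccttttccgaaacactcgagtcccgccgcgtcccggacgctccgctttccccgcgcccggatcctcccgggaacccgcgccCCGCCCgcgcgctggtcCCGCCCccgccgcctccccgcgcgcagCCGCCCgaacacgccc
MST1R: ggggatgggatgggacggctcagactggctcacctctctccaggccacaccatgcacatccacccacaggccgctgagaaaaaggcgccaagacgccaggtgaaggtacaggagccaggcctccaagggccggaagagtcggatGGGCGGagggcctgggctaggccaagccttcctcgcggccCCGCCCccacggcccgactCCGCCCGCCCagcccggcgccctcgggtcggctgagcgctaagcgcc
The AXL window held 2 GC boxes, that of GAS6 3 and that of MST1R 4. For each member 1 window was read, the nearest to its start, of 8 listed for DDR1 and 2 each for AXL and TYRO3. The windows read for DDR1 (chr6:30880720-30880969) and TYRO3 (chr15:41558962-41559211) lie inside the genes as listed. The other windows of these genes were counted only among all windows. A GC box was found in 9 of the 10 members' windows and in 42.6% of the 35116 windows of the RefSeq table. The member without one was DDR1, whose window held 1 CCAAT box (CCAAT, 32.0% of all windows). An AP-1 match (TGANTCA, 6.57% of windows) was found at TYRO3 alone, and a TEAD match (GGAATG, 11.9% of windows) at EPHA2 alone. All 10 windows were richer in G and C than the median window, at 60.4% to 81.2% against 58.0%. These letter matches describe the windows and show no binding.

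**Figure D1:**
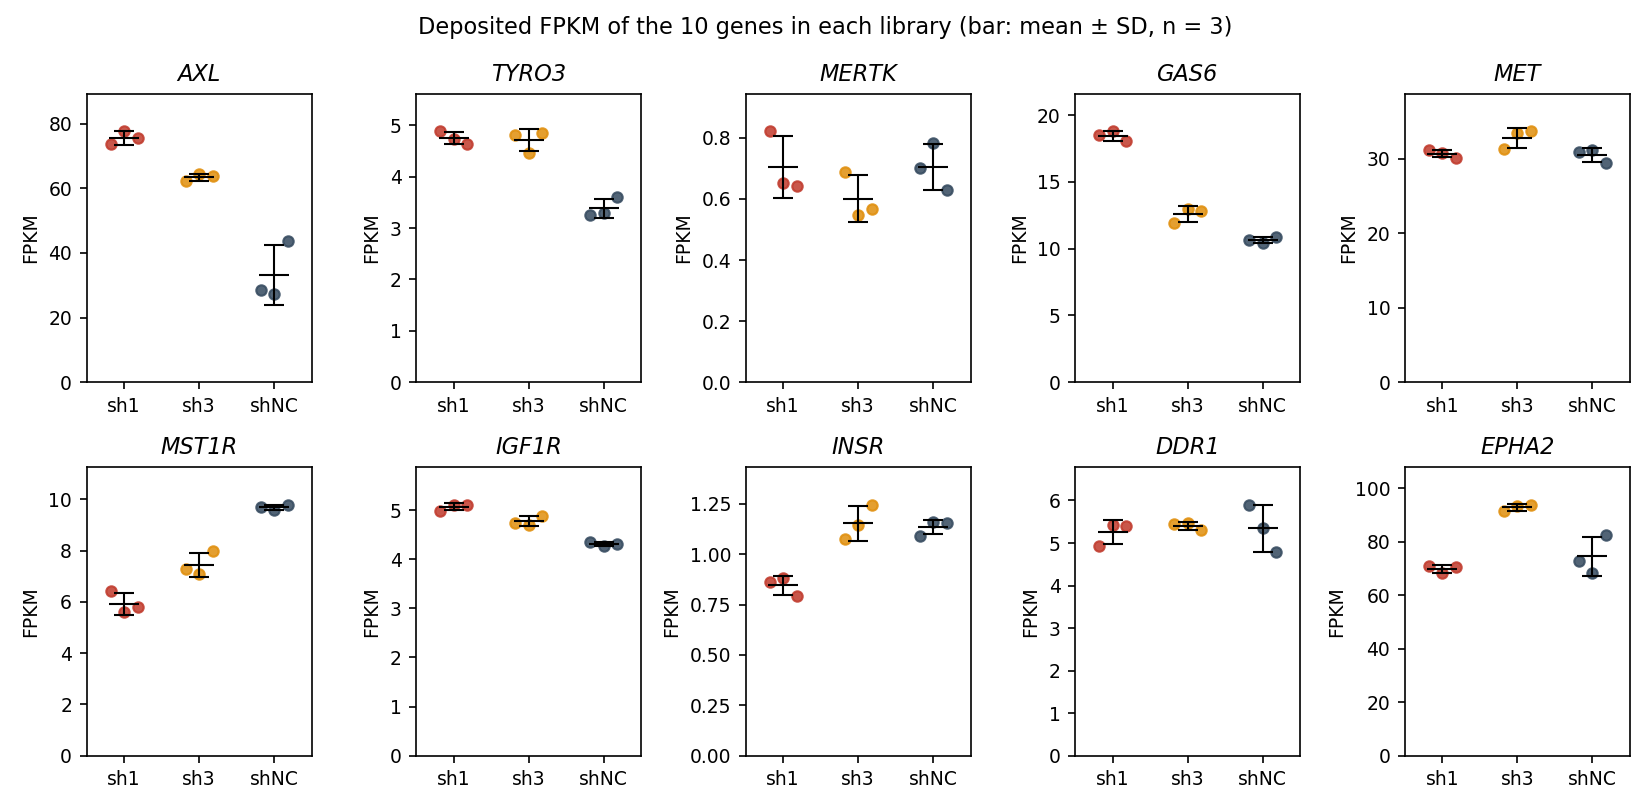
Levels of the 10 genes in FPKM on linear axes from 0, 1 panel a gene, with sh1, sh3 and shNC from left to right, 1 point a library and bars for the mean ± SD (n = 3). The AXL points of sh1 and sh3 all lie above the highest shNC point at 43.8 FPKM, while the MERTK points of all groups lie under 1 FPKM and overlap.

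The first question was how the receptors and GAS6 ranked in SKOV3 cells. EPHA2, AXL, MET and GAS6 were the most abundant of the 10 in all groups, and INSR and MERTK the least. In shNC the order by mean FPKM was EPHA2, AXL, MET, GAS6, MST1R, DDR1, IGF1R, TYRO3, INSR and MERTK, and AXL and MET were the only neighbours whose libraries overlapped. In sh1 AXL stood first, above EPHA2, with DDR1 overlapping IGF1R and INSR overlapping MERTK. In sh3 EPHA2 stood first and IGF1R overlapped TYRO3. The deposited FPKM divide by 1 length a gene that is close to the union of its exons, which is 2.41 times the longest coding transcript of GAS6 and 2.199 times that of DDR1, against at most 1.33 times for the other members. In CPM per kb of the longest coding transcript GAS6 stood above MET in sh1, at 48.6 ± 0.872 against 36.4 ± 0.449 (SD, n = 3). By that measure DDR1 ranked above MST1R in all groups, although the libraries of the pair overlapped in shNC.

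The comparison of each hairpin with the control asked which of these genes differed with the labelled knockdowns. In the libraries labelled sh1 AXL, TYRO3, GAS6 and IGF1R rose and MST1R and INSR fell. In the libraries labelled sh3 AXL, TYRO3, GAS6, MET, IGF1R and EPHA2 rose and MST1R fell. These were 6 of 10 members against 38.7% of the 21296 genes tested for sh1, and 7 of 10 against 26.9% for sh3, by edgeR's quasi-likelihood test at a Benjamini-Hochberg adjusted p under 0.05. By direction the 4 members higher and 2 lower in sh1 stood beside 19.9% and 18.8% of all genes, and the 6 higher and 1 lower in sh3 beside 14.4% and 12.4%. The median log2 change of the members was 0.04 in sh1 and 0.13 in sh3, against -0.02 and -0.01 over all genes. Their median absolute log2 change was 0.33 in sh1 and 0.23 in sh3, close to the 0.30 and 0.22 of all genes. The CPM of the libraries did not overlap for 6 members in sh1 and 7 in sh3, against 49.9% and 40.5% of all genes. Both comparisons share the 3 shNC libraries. Of the members 9 had a mean of at least 1 FPKM, while all genes tested include scarcer ones and were not matched for level. The members were chosen with earlier results of these data known, so their shares called describe them and test nothing. Without shNC replicate 3 the same members were called in the same directions, with log2 changes of 0.57 and 0.53 for TYRO3, 0.84 and 0.26 for GAS6, -0.66 and -0.36 for MST1R and 0.27 and 0.15 for IGF1R in sh1 and sh3, -0.38 for INSR in sh1 and 0.09 for MET in sh3.

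AXL, a receptor that drives survival and motility, had 73.6, 77.7 and 75.5 FPKM in sh1, 62.2, 64.4 and 63.7 FPKM in sh3, and 28.5, 27.2 and 43.8 FPKM in shNC. All 6 sh1 and sh3 libraries lay above all 3 shNC libraries, of which replicate 3 was the highest. The log2 fold change was 1.22 ± 0.138 (SE) in sh1, a 2.33-fold rise (edgeR adjusted p = 2.29e-05), and 0.94 ± 0.137 in sh3, a 1.92-fold rise (edgeR adjusted p = 3.47e-04). Without shNC replicate 3 the log2 fold changes were 1.48 in sh1 and 1.19 in sh3 (edgeR adjusted p = 1.40e-10 and 2.32e-09).

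TYRO3, on chromosome 15 (plus strand, 41557675 to 41583589), is the TAM receptor best known from the nervous system. It had 4.89, 4.74 and 4.64 FPKM in sh1, 4.81, 4.46 and 4.85 FPKM in sh3, and 3.25, 3.29 and 3.60 FPKM in shNC. The shNC libraries were again all lowest. TYRO3 rose by a log2 fold change of 0.52 ± 0.052 in sh1 and 0.48 ± 0.052 in sh3 (edgeR adjusted p = 8.25e-06 and 3.70e-05).

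MERTK, on chromosome 2 (plus strand, 111898607 to 112029561), is the TAM receptor of phagocytes and the retinal pigment epithelium. It had 0.822, 0.654 and 0.641 FPKM in sh1, 0.689, 0.547 and 0.567 FPKM in sh3, and 0.7004, 0.782 and 0.630 FPKM in shNC. The groups overlapped, at 148 to 235 counts a library, and the log2 fold changes of 0.04 ± 0.165 in sh1 and -0.22 ± 0.166 in sh3 did not pass the test. Without shNC replicate 3 they were -0.04 and -0.29 and did not pass it either.

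AXL made up most of the TAM receptor transcripts, at 93.3 ± 0.394% of the summed FPKM of the 3 genes in sh1, 92.3 ± 0.472% in sh3 and 88.7 ± 2.23% in shNC (SD, n = 3 each). The share was 4.60 percentage points higher in sh1 and 3.62 points higher in sh3, and the groups did not overlap (exact two-sided permutation test, p = 0.1 for each, the smallest p that 3 against 3 allows). The summed TAM level was 81.1 ± 1.901 FPKM in sh1, 68.7 ± 0.930 FPKM in sh3 and 37.3 ± 9.36 FPKM in shNC.

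GAS6, the vitamin K-dependent ligand with the highest affinity for AXL, had 18.5, 18.8 and 18.03 FPKM in sh1, 11.9, 13.0 and 12.8 FPKM in sh3, and 10.7, 10.4 and 10.8 FPKM in shNC. The 3 groups did not overlap, with sh1 far above sh3 and sh3 just above shNC. GAS6 rose by a log2 fold change of 0.82 ± 0.037 in sh1, or 1.77-fold, and by 0.24 ± 0.037 in sh3, or 1.18-fold (edgeR adjusted p = 1.74e-08 and 4.43e-04). The gene's antisense partner GAS6-AS1 had 32 to 59 counts, at most 1.30% of the GAS6 counts of a library. AXL stood at 4.10 ± 0.109 times the FPKM of GAS6 in sh1, 5.04 ± 0.143 times in sh3 and 3.11 ± 0.807 times in shNC (SD, n = 3 each), a ratio that the long exon union of GAS6 raises in every group alike. The highest shNC ratio, 4.04 in replicate 3, lay within the sh1 range of 3.98 to 4.19, and all sh3 ratios were higher.

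**Figure D2:**
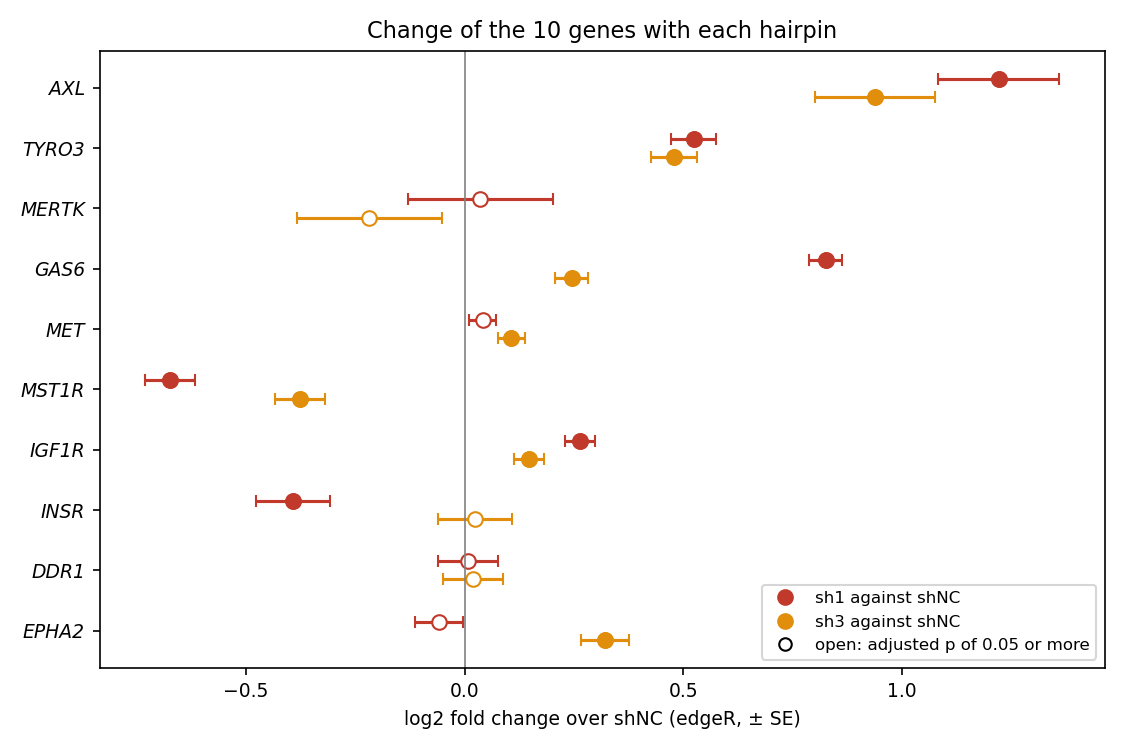
Log2 fold change over shNC of the 10 genes in sh1 and sh3, from edgeR. Bars give 1 standard error, derived from the F statistic of the test, and filled symbols an adjusted p under 0.05. AXL has the largest rise with both hairpins and MST1R the largest fall, while GAS6, INSR and EPHA2 take different values in sh1 and sh3.

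MET, on chromosome 7 (plus strand, 116672196 to 116798377), is the receptor of hepatocyte growth factor. It had 31.1, 30.8 and 30.1 FPKM in sh1, 31.3, 33.4 and 33.7 FPKM in sh3, and 30.8, 31.2 and 29.4 FPKM in shNC. The sh1 libraries overlapped shNC, and the lowest sh3 library was just above the highest shNC library. The log2 fold change was 0.04 ± 0.032 in sh1 (edgeR adjusted p = 0.360, with 0.0202 to 0.0570 when 1 library was left out) and 0.11 ± 0.032 in sh3 (edgeR adjusted p = 0.0264). The sh3 call was lost in 8 of 17 alternatives, with adjusted p up to 0.192, among them the omission of sh3 replicate 2 or 3 or of shNC replicate 1 (edgeR adjusted p = 0.0982, 0.104 and 0.0518).

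MST1R, which encodes RON, the receptor of macrophage-stimulating protein, is the closest relative of MET. It had 6.42, 5.60 and 5.79 FPKM in sh1, 7.29, 7.08 and 7.98 FPKM in sh3, and 9.69, 9.57 and 9.80 FPKM in shNC. The groups did not overlap, and sh1 was the lowest. The log2 fold change was -0.67 ± 0.057 in sh1, or 1.59-fold lower, and -0.38 ± 0.057 in sh3, or 1.30-fold lower (edgeR adjusted p = 2.34e-06 and 4.44e-04).

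IGF1R, on chromosome 15 (plus strand, 98648539 to 98964530), binds the insulin-like growth factors. It had 4.99, 5.11 and 5.11 FPKM in sh1, 4.73, 4.70 and 4.89 FPKM in sh3, and 4.36, 4.27 and 4.32 FPKM in shNC. Every sh1 and sh3 library was above every shNC library. The log2 fold change was 0.26 ± 0.034 in sh1 and 0.15 ± 0.034 in sh3 (edgeR adjusted p = 6.35e-05 and 0.00685).

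INSR, the insulin receptor, lies on chromosome 19 (minus strand, 7112255 to 7294414). It had 0.861, 0.881 and 0.793 FPKM in sh1, 1.07, 1.14 and 1.25 FPKM in sh3, and 1.09, 1.16 and 1.154 FPKM in shNC. The sh1 libraries lay below all others, and sh3 overlapped shNC. The log2 fold change was -0.39 ± 0.085 in sh1, or 1.31-fold lower (edgeR adjusted p = 0.00295), and 0.02 ± 0.085 in sh3 (edgeR adjusted p = 0.880).

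IGF1R and INSR proteins pair into hybrid receptors, so the ratio of their transcripts was compared. The log2 ratio of INSR to IGF1R in FPKM was -2.59 ± 0.0881 in sh1, -2.05 ± 0.0846 in sh3 and -1.93 ± 0.0605 in shNC (SD, n = 3 each). It was -0.66 apart from shNC in sh1 (exact two-sided permutation test, p = 0.1, the smallest possible) and -0.12 apart in sh3 (exact p = 0.2), where leaving out 1 library gave -0.162 to -0.0778, with -0.0778 without sh3 replicate 1. On a linear scale IGF1R stood at 6.01 ± 0.374 times INSR in sh1, 4.15 ± 0.245 times in sh3 and 3.81 ± 0.161 times in shNC.

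**Figure D3:**
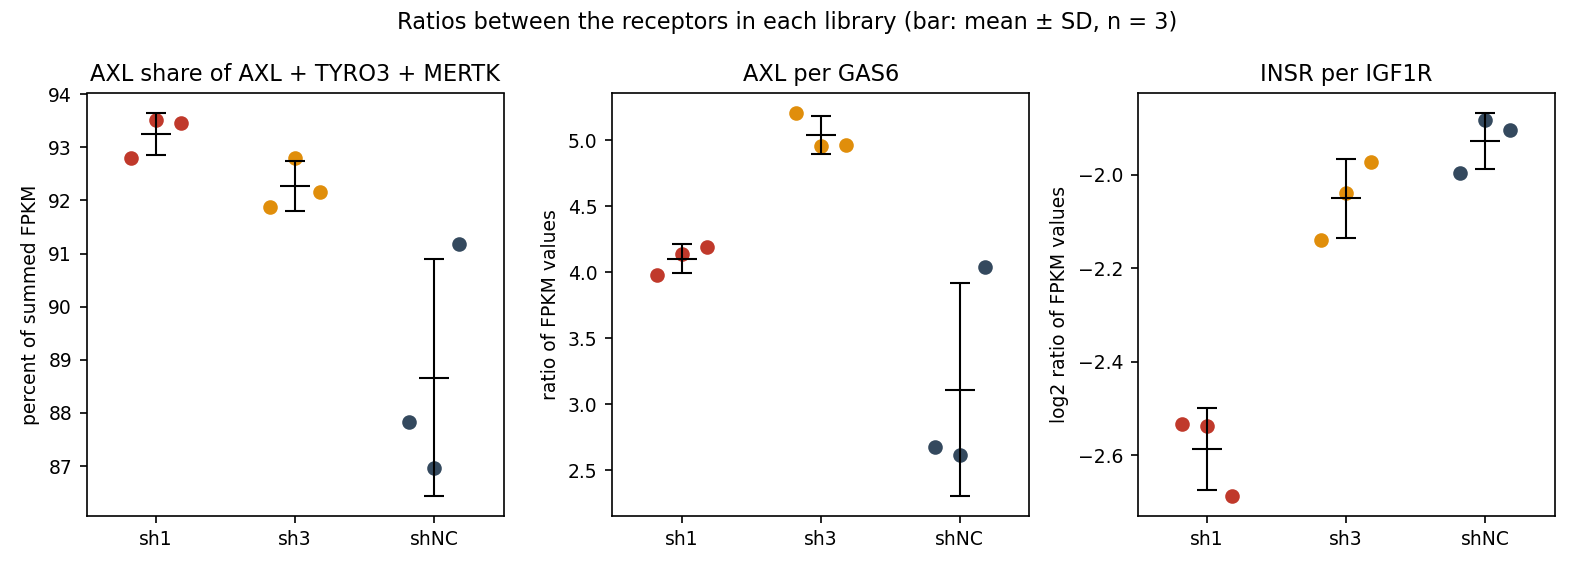
Share of AXL in the summed FPKM of AXL, TYRO3 and MERTK in percent (left), ratio of AXL to GAS6 in FPKM (middle) and log2 ratio of INSR to IGF1R in FPKM (right), with sh1, sh3 and shNC from left to right, 1 point a library, bars for the mean ± SD (n = 3) and axes that do not start at 0. The shNC shares spread from 87.0% to 91.2% and lie below all sh1 and sh3 shares, and the sh1 log2 ratios of INSR to IGF1R lie below those of both other groups. The AXL to GAS6 ratios of sh1 overlap those of shNC, and those of sh3 lie above both.

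DDR1, on chromosome 6 (plus strand, 30876421 to 30900154), is a collagen receptor of epithelial cells. It had 4.93, 5.42 and 5.41 FPKM in sh1, 5.44, 5.48 and 5.30 FPKM in sh3, and 5.90, 5.35 and 4.78 FPKM in shNC. The groups overlapped, and the shNC libraries spread most. The log2 fold changes of 0.01 in sh1 and 0.02 in sh3 did not pass the test (edgeR adjusted p = 0.947 and 0.885).

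EPHA2, on chromosome 1 (minus strand, 16124337 to 16156069), is a receptor of the membrane-bound ephrin-A ligands. It had 71.0, 68.1 and 70.6 FPKM in sh1, 91.4, 93.5 and 93.8 FPKM in sh3, and 72.9, 68.1 and 82.4 FPKM in shNC. The sh3 libraries lay above all others, and sh1 overlapped shNC, of which replicate 3 was the highest. The log2 fold change was -0.06 ± 0.055 in sh1 (edgeR adjusted p = 0.445) and 0.32 ± 0.055 in sh3 (edgeR adjusted p = 0.00104). Without shNC replicate 3 it was 0.02 in sh1 and 0.41 in sh3 (edgeR adjusted p = 0.616 and 2.66e-06).

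The direct comparison of the libraries labelled sh3 with those labelled sh1 found MST1R, INSR and EPHA2 higher and GAS6 and IGF1R lower in sh3. These were 3 of 10 members higher and 2 lower, beside 12.9% and 13.0% of all genes, or 5 of 10 beside 25.9%. The CPM of the libraries did not overlap for 6 members, against 41.8% of all genes. GAS6 had the largest difference, at -0.58 ± 0.037 (edgeR adjusted p = 6.29e-07). INSR differed by 0.42 ± 0.085, EPHA2 by 0.38 ± 0.055 and MST1R by 0.30 ± 0.057 (edgeR adjusted p = 0.00361, 3.64e-04 and 0.00251). IGF1R differed by -0.12 ± 0.034 (edgeR adjusted p = 0.0245), a call lost in 6 of 17 alternatives with adjusted p up to 0.152, among them the omission of sh1 replicate 2 or 3 or of sh3 replicate 1 or 2 (edgeR adjusted p = 0.0698, 0.0905, 0.0591 and 0.0871). The sh3 and sh1 libraries of AXL did not overlap, but its log2 difference of -0.28 ± 0.135 did not pass the test when the 3 groups shared 1 estimate of spread (edgeR adjusted p = 0.159). It passed without shNC replicate 3 (edgeR adjusted p = 2.34e-05) and in a fit of the sh3 and sh1 libraries alone (edgeR adjusted p = 3.01e-05). The median log2 difference of the members was -0.02, against 0.01 over all genes.

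Ligands of the receptors, a list of 18 genes chosen by role beside GAS6, had 15 tested, of which 6 were higher and 6 lower in sh1 and 5 higher and 4 lower in sh3. That is 80.0% called in sh1 and 60.0% in sh3, beside 38.7% and 26.9% of all genes tested. The shares of all genes include scarcer genes and were not matched to any list for expression level. A mean of at least 1 FPKM was reached by 12 of the 15 ligands. In the lists below it was reached by 16 of 40, 34 of 35 and 14 of 17 tested genes, in the order given. This and the other lists were chosen with earlier results of these data known, so their shares describe the lists and test nothing. Their median log2 change was 0.04 in sh1 and 0.14 in sh3. EFNA1, a membrane-bound ligand of EPHA2, fell to 8.29 ± 0.235 FPKM in sh1 and 8.28 ± 0.983 FPKM in sh3, against 16.9 ± 1.60 FPKM in shNC, with log2 changes of -0.99 and -1.02 (edgeR adjusted p = 2.64e-06 and 5.10e-06). EFNA5, another ephrin-A, had log2 changes of -0.25 and -0.48 (edgeR adjusted p = 0.0169 and 4.98e-04). The collagen chains COL6A1 and COL4A1, from the family that DDR1 binds, rose by 1.03 and 1.04 in sh1 and by 0.91 and 0.32 in sh3. The other listed chains were picked after their values were seen. COL1A1, COL4A2 and COL5A1 were called higher with both hairpins. COL1A2 had log2 changes of 0.32 in sh1 and -0.62 in sh3, both past the test. COL3A1 had -0.68 in sh1, past the test, and 0.28 in sh3, not past it. PROS1, which encodes protein S, the other TAM ligand, was picked after its values were seen. It fell to 8.79 ± 0.217 FPKM in sh1 and 9.14 ± 0.205 FPKM in sh3, against 11.5 ± 0.877 FPKM in shNC, with log2 changes of -0.35 and -0.33 (edgeR adjusted p = 1.89e-04 and 6.34e-04), while GAS6 rose with both hairpins.

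Of 40 tested genes among 49 other receptor tyrosine kinases, 12 were higher and 8 lower in sh1, and 9 were higher and 4 lower in sh3, with medians of -0.06 and 0.00. The shares called, 50.0% in sh1 and 32.5% in sh3, stood beside 38.7% and 26.9% of all genes. EPHB2, a receptor of ephrin-B ligands, had 15.9 ± 0.252 FPKM in sh1, 15.2 ± 0.175 in sh3 and 11.3 ± 0.258 in shNC, with log2 changes of 0.52 and 0.43 (edgeR adjusted p = 6.89e-08 and 8.34e-07). FGFR3, a fibroblast growth factor receptor, rose by 0.26 and 0.62. EPHA4, which binds ephrins of both classes, fell to 1.33 ± 0.0256 FPKM in sh1 and 1.22 ± 0.157 FPKM in sh3, against 1.92 ± 0.345 FPKM in shNC, with log2 changes of -0.50 and -0.65.

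Of 35 tested adaptors and effectors 13 were higher and 12 lower in sh1, and 8 were higher and 10 lower in sh3, with medians of -0.02 and -0.05. These were 71.4% and 51.4% of the list, beside 38.7% and 26.9% of all genes. GRB10, an adaptor that restrains insulin and IGF receptor signalling, had 3.93 ± 0.0722 FPKM in sh1, 4.69 ± 0.284 in sh3 and 2.33 ± 0.177 in shNC, with log2 changes of 0.78 and 1.01 (edgeR adjusted p = 1.09e-06 and 4.38e-07). SOCS2, a suppressor of cytokine signalling, rose by 0.56 and 0.67. VAV3, a guanine nucleotide exchange factor that receptor kinases activate, had log2 changes of -0.84 and -0.62. GRB7, an adaptor whose gene neighbours ERBB2, had -0.83 and -0.40. ERBB2 itself, picked after its values were seen, had 500.4 ± 17.8 FPKM in sh1, 853 ± 22.6 FPKM in sh3 and 910 ± 64.6 FPKM in shNC, with log2 changes of -0.83 in sh1 (edgeR adjusted p = 4.86e-08) and -0.09 in sh3 (edgeR adjusted p = 0.155).

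Of 17 tested genes of proteolysis, processing and negative control 7 were higher and 4 lower in sh1, and 5 were higher and 5 lower in sh3, with medians of 0.07 and -0.01. Called genes made up 64.7% of the list in sh1 and 58.8% in sh3, against 38.7% and 26.9% of all genes. MMP14, a membrane-bound matrix metalloprotease, had 1.36 ± 0.189 FPKM in sh1, 3.24 ± 0.526 in sh3 and 0.812 ± 0.0399 in shNC, with log2 changes of 0.78 and 1.99 (edgeR adjusted p = 9.63e-04 and 1.72e-06). VKORC1, which recycles the vitamin K that GAS6 needs for its carboxylation, rose by 0.45 and 0.31. SPINT2, an inhibitor of the proteases that activate hepatocyte growth factor, fell to 36.8 ± 1.87 FPKM in sh1 and 36.6 ± 1.12 FPKM in sh3, against 50.6 ± 0.711 FPKM in shNC, with log2 changes of -0.43 and -0.46. PCSK5, a proprotein convertase, had log2 changes of -0.57 and -0.23. ADAM10 and ADAM17, sheddases that cut receptor ectodomains and were picked after their values were seen, had log2 changes of -0.20 and -0.30 in sh1 and -0.31 and -0.23 in sh3, all past the test.

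**Figure D4:**
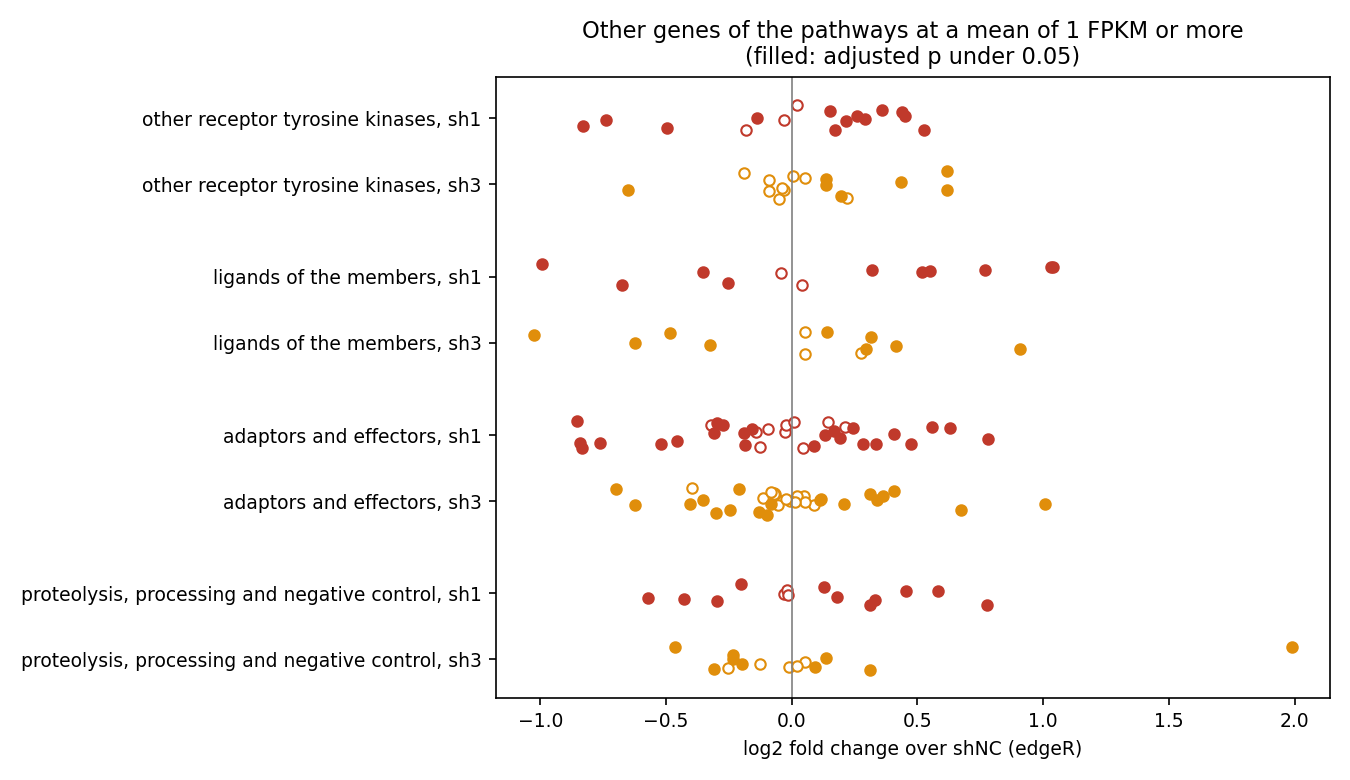
Log2 fold change over shNC in sh1 and sh3, from edgeR, of the 76 listed pathway genes with a mean of at least 1 FPKM, 1 point a gene and filled where the adjusted p is under 0.05. Every list holds filled points on both sides of 0, and MMP14 at 1.99 in sh3 lies farthest out.

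The genes whose libraries followed each member most closely were found by the root mean square difference of centred log2 CPM over the 9 libraries, among 11243 genes (11244 for MERTK), and 2 were named for each member as a description. AXL was most like CCNB1, the mitotic cyclin B1, and ARHGAP11A, at differences of 0.116 and 0.117, where the AXL values themselves had a root mean square spread of 0.57. CCNB1 averaged 116 FPKM in sh1, 108 FPKM in sh3 and 56.5 FPKM in shNC. GAS6 was most like GALNT2, a glycosyltransferase of the Golgi, and SSR3, a subunit of the translocon-associated complex, at 0.0476 and 0.0516. The own spread of GAS6 was 0.348. MST1R was most like ATP9A and MBNL3. IGF1R, with an own spread of 0.110, was most like PARD3, a cell polarity protein, and RPS6, a ribosomal protein, at 0.0127 and 0.0201. TYRO3 was most like SNAPC2 and IRAK1, INSR like MAGEF1 and MAPK6, and EPHA2 like SHB and ALDH16A1. MERTK was most like KCTD6 and TOM1L1, at 0.0861 and 0.0910 against its own spread of 0.183. MET was most like OCRL and CAPRIN1, at 0.0187 and 0.0212 against 0.0535. DDR1 was most like FHL3 and MEF2D, at 0.0413 and 0.0414 against 0.0832. For MERTK and DDR1 these differences are large beside the spread, so the likeness is loose.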

How the data were processed

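RNA of 9 SKOV3 libraries was sequenced after oligo(dT) selection in a strand-marking preparation, per the labels' protocols. The submitters' processing notes name HISAT2 2.2.1, StringTie 2.1.6, cutadapt 1.9, edgeR and DESeq2 with the GRCh38 build. What each tool did, the annotation used and any use of strand in counting were not given in the sources used here. Values of overlapping or antisense genes are therefore uncertain. The authors deposited whole-number read counts per gene, not normalized, and deposited FPKM beside them. Within 1% the FPKM were the counts over 1 length per gene for 12493 of 12656 genes compared.

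All 21296 genes passing filterByExpr (minimum count 10) were tested on counts with edgeR 4.0.16 in R 4.3.3, using TMM factors, 1 mean per group over all 9 libraries and two-sided Benjamini-Hochberg adjustment over those genes. All 10 members passed the filter. The standard error of a log2 change was derived as its absolute value over the square root of the test's F statistic. The fit was also run on simulated counts. The bar for recovered changes was lowered after the outcome was seen, so that run is not used as support. Alternatives were DESeq2 1.42.0, limma 3.58.1 on log2(FPKM + 1) and log2(FPKM + 0.1), no filter, library totals, the compared groups alone, a replicate block and leaving out each library. An order by transcript length, and library totals without shNC replicate 3, were added after seeing the data. Ratios were tested by exact permutation over libraries.

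Members, lists and motifs were chosen with earlier results of these data known. Of each list the text names up to 2 genes per direction, those with the largest mean change of those that sh1 and sh3 both moved the same way past the threshold, at a mean of at least 1 FPKM, and for each member the 2 most alike genes. Promoter sequences are from RefSeq (GRCh38.p14).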

Additional observations from a re-analysis of the deposited data

Results flagged for a closer look

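GAS6, MST1R, IGF1R, INSR and EPHA2 changed by different amounts in sh3 and sh1, by edgeR's test of the difference itself. GAS6 was 0.24 above shNC in sh3 and 0.82 above it in sh1 on the log2 scale, a difference of -0.58 with the 3 sh3 libraries all below the 3 sh1 libraries. MST1R was at -0.38 in sh3 and -0.67 in sh1, a difference of 0.30. IGF1R was at 0.15 in sh3 and 0.26 in sh1, a difference of -0.12 that did not hold under every alternative. INSR was at 0.02 in sh3 and -0.39 in sh1, a difference of 0.42. EPHA2 was at 0.32 in sh3 and -0.06 in sh1, a difference of 0.38. The sh3 and sh1 libraries of these 5 genes did not overlap, as was so for 41.8% of all genes tested.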

How the results depend on the processing

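Of the 18 called changes of the members 16 kept their direction and their side of the threshold under all 17 alternatives, the exceptions being MET in sh3 against shNC and IGF1R in sh3 against sh1. Over these alternatives the AXL log2 change was 1.10 to 1.48 in sh1 and 0.81 to 1.19 in sh3, and that of GAS6 was 0.74 to 0.84 in sh1 and 0.22 to 0.28 in sh3. Signs reversed for 7 of the 12 uncalled values, and the cause was not tested. With library totals in place of TMM factors the median log2 change over all genes moved by -0.0372 in sh1 and -0.0260 in sh3. The log2 values were then -0.000977 for MERTK and -0.0297 for DDR1 in sh1, and -0.0015 for INSR and -0.00726 for DDR1 in sh3. With limma DDR1 in sh1 was at -0.0177 with a pseudocount of 1 and -0.0201 with 0.1. Leaving out 1 library at a time gave -0.0816 to 0.119 for MERTK, -0.0621 to 0.0829 for DDR1 and -0.120 to 0.0231 for EPHA2 in sh1, -0.0282 to 0.0716 for INSR and -0.0497 to 0.0939 for DDR1 in sh3, and -0.0376 to 0.0389 for DDR1 in sh3 against sh1. With library totals and without shNC replicate 3 together, a setting chosen after seeing the data, MERTK was at -0.0743, MET at -0.0186 and DDR1 at -0.101 in sh1, and DDR1 at -0.0789 in sh3.

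The count of called genes of proteolysis, processing and negative control in sh3 against sh1 was 5 under both limma fits, against 8, and 5 to 9 without 1 library. In sh3 against shNC it was 6 to 11 without 1 library, against 10, and that of adaptors and effectors was 11 to 17, against 18. The lowest of these came without sh3 replicate 2 (6) and without sh3 replicate 3 (11). Same-numbered libraries of different groups deviated together by correlations of -0.03 to 0.02, and differently numbered ones by up to 0.05. No shared deviation by replicate number was thus seen, which does not show whether those libraries were prepared together. With a replicate block the called members stayed at 6, 7 and 5 in the 3 comparisons, and all genes called were 7951, 5446 and 5125. MERTK, at 148 to 235 counts, is the member whose changes this depth measures least well.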

Other observations

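The ligands of several of these receptors were scarce in SKOV3 cells. HGF, the MET ligand, averaged 0 FPKM in sh1, 0.00503 in sh3 and 0 in shNC and was not tested. MST1, which encodes the ligand of MST1R, had 0.276 ± 0.0276 FPKM in sh1, 0.358 ± 0.0915 in sh3 and 0.538 ± 0.0673 in shNC (SD, n = 3 each). It fell in sh1 by a log2 change of -0.90 (edgeR adjusted p = 0.00353), and its change of -0.57 in sh3 did not pass the test (edgeR adjusted p = 0.0551). IGF1 averaged 0.00456 FPKM in sh1, 0.000795 in sh3 and 0.00316 in shNC, and IGF2 averaged 0.0559 FPKM in sh1, 0.216 in sh3 and 0.195 in shNC. At these low levels IGF2 was called lower in sh1 (log2 change -1.75, edgeR adjusted p = 0.0317) and not called in sh3 (edgeR adjusted p = 0.883). ST14, which encodes matriptase, a protease that activates hepatocyte growth factor, averaged 0.0145 FPKM in sh1, 0.400 in sh3 and 0.00737 in shNC. Though scarce, it was called higher in sh3 (log2 change 5.57, edgeR adjusted p = 0.0029) and not called in sh1 (edgeR adjusted p = 0.624). These genes were picked after their values were seen.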
